A study of Mus musculus with 4 samples.

Results

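The imprinted Dlk1-Dio3 microRNA cluster was followed in mouse abdominal skin 24 hr after topical shikonin. The members were the 48 mature microRNAs of the locus listed by name and found in the spot table of a Geniom biochip, out of 710 mouse microRNAs on the chip. Shikonin is a naphthoquinone pigment from the root of Lithospermum erythrorhizon. Skin of female C57BL/6JNarl mice, 6 to 8 weeks old, received 100 μl of acetone alone or of 10 μg/μl shikonin in acetone, and the labels name no allele or further agent in either group. There were 2 arrays of acetone-treated skin (acetone 1 and 2) and 2 of shikonin-treated skin (shikonin 1 and 2). The study describes the arrays of a group as biological replicates on separate chips. Neither it nor the labels say whether each array had a mouse of its own, so the p-values reflect the spread of these arrays, part of which may be technical.

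The Dlk1-Dio3 region is an imprinted domain. Its protein-coding genes Dlk1, Rtl1 and Dio3 are expressed from the paternal chromosome, and its long non-coding RNAs Meg3, Rian and Mirg are expressed from the maternal chromosome and carry the microRNAs. The microRNAs fall into a group antisense to Rtl1 (miR-431, miR-433, miR-127, miR-434 and miR-136 among them) and the large miR-379 to miR-410 group. The cluster is known for its expression in the embryo, the placenta and the adult brain. On the biochip a captured microRNA primes an enzymatic extension that adds biotin, so a spot is bright where RNA was bound by its probe and extended. The specificity of the probes was not tested. In whole skin, fewer cells of a type and less RNA per cell cannot be told apart by such a measurement.

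Of the 48 members, 45 were matched to a mature sequence in RefSeq (GRCm38.p6), and all of these lay on chromosome 12. The sequences of the 8 members above background on at least 1 array are given because the results turn on them, with the seed (bases 2 to 8) in capitals.
mmu-miR-667: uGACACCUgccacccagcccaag
mmu-miR-329: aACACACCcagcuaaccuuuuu
mmu-miR-666-5p: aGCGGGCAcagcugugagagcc
mmu-miR-679: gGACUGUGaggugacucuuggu
mmu-miR-379: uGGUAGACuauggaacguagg
mmu-miR-411: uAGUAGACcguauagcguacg
mmu-miR-431: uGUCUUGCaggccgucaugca
mmu-miR-376a: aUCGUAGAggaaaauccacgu

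Each of the 45 members had a seed of its own. Across the members, 3 pairs differed at 1 base of the seed, counted from 1 at the 5′ end: miR-379 and miR-411 (G2A), miR-376a and miR-376b (G4A), and miR-300 and miR-381 (G4A). All 3 pairs came from adjacent genes of the locus: Mir379 and Mir411, Mir376b and Mir376a, and Mir300 and Mir381.

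Most members could not be told from background in abdominal skin. A microRNA was called above background on an array when its median spot exceeded the median of 41 microRNAs typical of other tissues (testis, brain, liver, islet and embryonic stem cells) by more than 3 MAD (median absolute deviation) of that list, which put the threshold at a raw intensity between 397 and 558. By this rule 40 of the 48 members (83.3%) were above background on no array, against 427 of the 710 microRNAs (60.1%). A single member, miR-667, was above background on all 4 arrays (2.08% of members), against 150 of 710 (21.1%). The number of members above background was 6 and 4 after acetone and 3 and 4 after shikonin.

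The other 7 detected members were split between the groups. miR-329 and miR-666-5p were above background on 3 arrays, both shikonin arrays and 1 acetone array. miR-379 and miR-431 were above background on both acetone arrays and on neither shikonin array. miR-411 and miR-376a were above background on 1 acetone array alone, and miR-679 on 1 shikonin array alone. The rule sits close to several of these members. After acetone miR-431 had raw intensities of 400 and 480, just above thresholds of 397 and 475. After shikonin it had 424 and 500, under thresholds of 435 and 558.

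**Figure D1:**
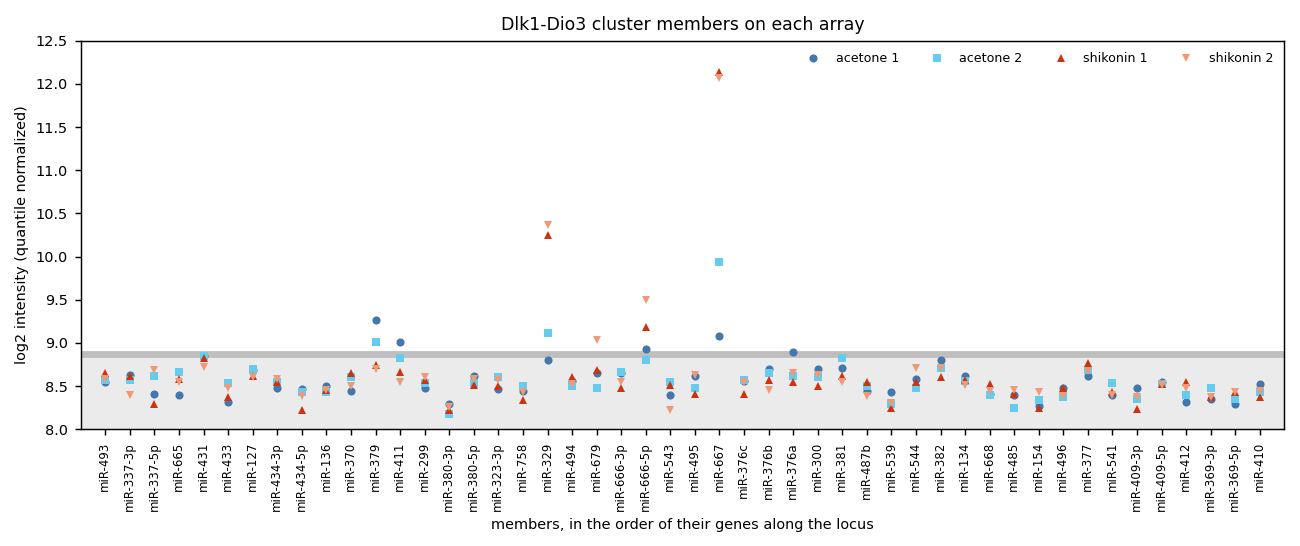
Normalized log2 intensity of the 48 members on the 4 arrays, with members in the order of their genes along the locus. The grey area lies below the background thresholds (8.84 to 8.90 on this scale), and the shikonin arrays stand highest at miR-667 (12.14 and 12.07) and miR-329 (10.25 and 10.37).

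The members undetected on every array included miR-134 and miR-127, known from nervous tissue and placenta, whereas miR-329, also known from neurons, was detected on 3 arrays. miR-134, which limits the size of dendritic spines in rat neurons, had raw intensities of 336 and 388 after acetone and 356 and 428 after shikonin. miR-127, which is antisense to the placental gene Rtl1, had 352 and 428 against 368 and 460. Both therefore lay under the threshold on each array. The group before Mir379 in the locus order held 11 members, and miR-431 was its only detected one. The other 10 (miR-493, miR-337-3p, miR-337-5p, miR-665, miR-433, miR-127, miR-434-3p, miR-434-5p, miR-136 and miR-370) had log2 fold changes of shikonin over acetone between -0.15 and 0.05.

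Among the 37 members from Mir379 to Mir410, 30 were undetected. These were miR-299, miR-380-3p, miR-380-5p, miR-323-3p, miR-758, miR-494, miR-666-3p, miR-543, miR-495, miR-376c, miR-376b, miR-300, miR-381, miR-487b, miR-539, miR-544, miR-382, miR-134, miR-668, miR-485, miR-154, miR-496, miR-377, miR-541, miR-409-3p, miR-409-5p, miR-412, miR-369-3p, miR-369-5p and miR-410. miR-376b belongs, with miR-376a, to a family known for A-to-I editing in the mouse brain. The log2 fold changes of the 30 ran from -0.19 (miR-381) to 0.15 (miR-412). The arrays gave no level above background for these members, so their fold changes are values taken within the background range.

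Shikonin was then compared with acetone in limma (log2 of quantile-normalized median spots, two-sided, Benjamini-Hochberg over all 710 microRNAs). None of the 48 members passed an adjusted p of 0.05, and the smallest adjusted p among them was 0.125. Over the whole chip 2 of 710 microRNAs passed (0.282%). At an unadjusted limma p under 0.05 there were 5 members, 3 higher (miR-667, miR-329 and miR-666-5p) and 2 lower (miR-379 and miR-411), against 125 of 710 microRNAs (17.6%). The groups did not overlap for 10 higher and 10 lower members, against backgrounds of 22.4% and 26.8% of all microRNAs. With 2 arrays against 2, the smallest two-sided p that an exact permutation test of 1 microRNA can give is 0.333.

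As a group the members were centred near 0. Their median log2 fold change was -0.021, beside -0.006 over all 710 microRNAs and -0.13 over the 150 above background on all 4 arrays. A total of 20 members had a positive and 28 a negative fold change. On the log2 scale 46 of the 48 lay within 0.5 of 0, against 572 of all 710 microRNAs. The members outside that range were miR-667 and miR-329. Without these the median was -0.027.

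The member set was also described by a distance rule, in which a member departed from the cluster when its log2 fold change lay over 3 MAD from the members' median, outside -0.33 to 0.29. By this description 5 members departed. The limits rest on the members' own MAD of 0.10, in a set mostly at background. The MAD was 0.18 over all 710 microRNAs and 1.04 over the 150 above background on all 4 arrays, so the limits are narrow for a detected microRNA. miR-667 lay farthest above the members' median, followed by miR-329 at 13.1 MAD, miR-666-5p at 4.77 MAD and miR-679, just outside the limit, at 3.03 MAD. miR-379 lay below it, at -3.80 MAD, and miR-411 stayed just inside the limit at -2.84 MAD. Without acetone 2, and likewise without shikonin 2, the departing members were 2, miR-667 and miR-329.

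**Figure D2:**
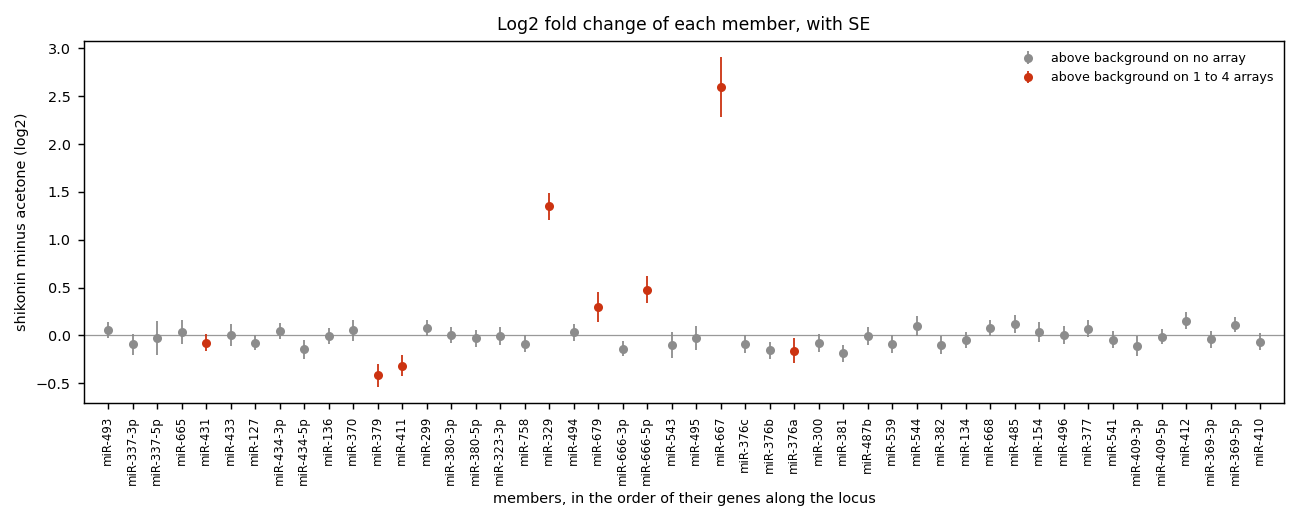
Log2 fold change of shikonin over acetone for each member, in the order of the genes along the locus, with bars of 1 SE from limma and n = 2 arrays per group. miR-667 (2.59) and miR-329 (1.35) stand apart from the members beside them, and the 40 members above background on no array (grey) lie between -0.19 and 0.15.

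miR-667 had the highest log2 fold change of all 710 microRNAs. Its raw intensity was 456 and 1220 after acetone against 3953 and 2769 after shikonin. Both shikonin arrays were above both acetone arrays, and on the log scale the acetone arrays lay farther from each other than the shikonin arrays did. On the normalized log2 scale it measured 9.51 ± 0.60 (SD, n = 2) after acetone and 12.10 ± 0.06 (SD, n = 2) after shikonin. The log2 fold change was 2.59 (SE 0.31), a 6.03-fold difference, with a limma adjusted p of 0.125. It was the brightest member of the cluster and ranked 47 of 710 by mean level.

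The single spots of miR-667 were widely spread. They ran from 368 to 808 on acetone 1, from 744 to 10634 on acetone 2, from 1544 to 8866 on shikonin 1 and from 1536 to 4193 on shikonin 2. Every spot of acetone 1 was dimmer than every spot of both shikonin arrays, whereas the spots of acetone 2 overlapped with theirs and the brightest, at 10634, was above every shikonin spot. With the mean of the spots in place of the median, the log2 fold change was 2.08. Leaving out single arrays gave 2.05 to 2.89, the lowest without acetone 1.

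miR-329, one of the microRNAs of the locus that are induced by activity in rat neurons, was also higher on both shikonin arrays. Its raw intensity was 384 and 624 after acetone against 996 and 1236 after shikonin, with no overlap. Its single spots ran from 280 to 568 on acetone 1, from 504 to 824 on acetone 2, from 656 to 1712 on shikonin 1 and from 832 to 1712 on shikonin 2. The normalized log2 intensity was 8.96 ± 0.22 (SD, n = 2) against 10.31 ± 0.08 (SD, n = 2), a log2 fold change of 1.35 (SE 0.14) or 2.55-fold, with a limma adjusted p of 0.125. It ranked 23 of 710 by fold change. Both members were above 0 under each alternative run, from 2.05 to 4.58 for miR-667 and from 1.11 to 2.97 for miR-329, and limma with an intensity trend in the variance gave both an adjusted p of 0.0152, in a setting that called 38 of the 710 microRNAs. Over the alternatives the limma adjusted p ran from 1.92e-12 to 0.981 for miR-667 and from 7.57e-06 to 0.981 for miR-329.

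**Figure D3:**
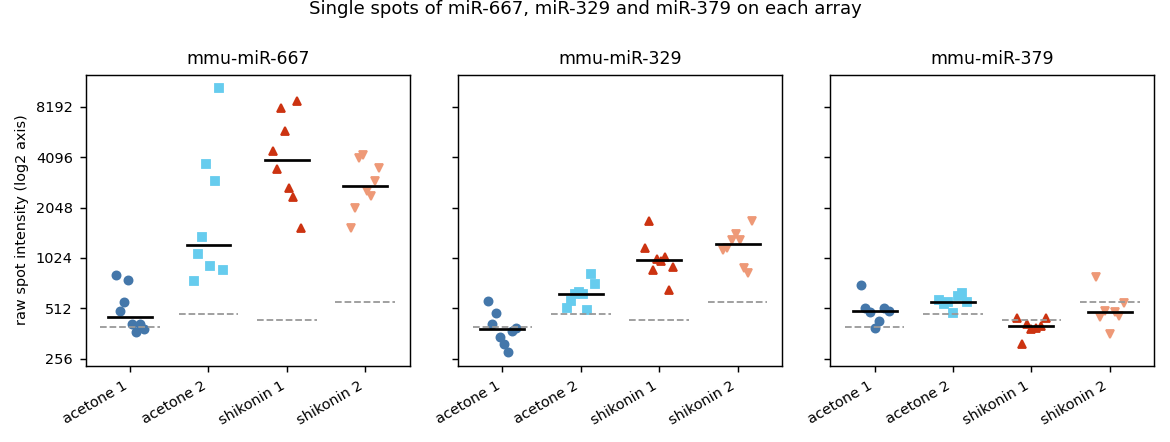
Raw intensity of the single spots (points, log2 axis) of miR-667, miR-329 and miR-379 on each array, with the median as a black bar and the background threshold of the array as a dashed line. The medians of miR-667 were 456, 1220, 3953 and 2769, those of miR-329 were 384, 624, 996 and 1236, and those of miR-379 were 496, 560, 400 and 488, in the order of the panels' axes.

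The genes next to Mir667 and Mir329 gave no such values. Mir667 lies between Mir495 and Mir376c, whose members were undetected with log2 fold changes of -0.03 and -0.09. Mir329 lies between Mir758 and Mir494, undetected at -0.09 and 0.03. The genes of the members departing upward, Mir329, Mir679, Mir666 and Mir667, were 27, 29, 31 and 34 of 56 in the locus order. Between them the members of Mir494, Mir543 and Mir495 were undetected. This order was looked at after the values were known and was not tested. The summed normalized intensity of all 48 members was 18493 and 18823 after acetone against 22714 and 22940 after shikonin. Without miR-667 and miR-329 it was 17502 and 17287 against 16971 and 17331, so that the groups overlapped. miR-667 alone accounted for 542.5 and 981 of the acetone sums and for 4523 and 4285 of the shikonin sums.

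miR-666-5p was the third member with a higher level after shikonin, with raw intensities of 420 and 464 against 532 and 776. Its log2 fold change was 0.48 (SE 0.14), with a limma adjusted p of 0.212. The opposite arm of the same hairpin, miR-666-3p, was undetected, with 344 and 416 against 336 and 440 and a log2 fold change of -0.14 (0.02 without normalization and 0.69 with scaling to bright microRNAs). In the 5 other hairpins with both arms among the members no arm was detected. Their log2 fold changes were -0.10 and -0.03 for miR-337-3p and miR-337-5p, -0.04 and 0.11 for the arms of miR-369, 0.00 and -0.03 for those of miR-380, -0.11 and -0.02 for those of miR-409, and 0.05 and -0.15 for those of miR-434, in the same order of arms.

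miR-679 had raw intensities of 344 and 368 against 384 and 592, and only the last, on shikonin 2, was above background. The bound was at least 1.01-fold higher on the shikonin arrays, with a fitted log2 fold change of 0.30 (SE 0.16) and a limma adjusted p of 0.472. For both miR-666-5p and miR-679, the highest value came from shikonin 2. On that array the median spot in the first 800 rows of the table was 928, against 456 in the other rows, whereas on the other arrays the first rows had medians of 416 to 424 and the rest 336 to 416. Both of these members had 2 of their spots in those rows. After an adjustment for row order their log2 fold changes were 0.37 and 0.13, and without those rows 0.29 and 0.22. The fold change of miR-679 was 0.12 without shikonin 2, 0.19 without acetone 2 and 0.48 without shikonin 1. The values of miR-667 were 2.60 and 2.59 and those of miR-329 were 1.29 and 1.43 under the same settings.

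The neighbours miR-379 and miR-411 had lower levels after shikonin, except when each array was scaled to its bright microRNAs. miR-379 gives the larger group of the locus its name. Its raw intensity was 496 and 560 after acetone, both above background, against 400 and 488 after shikonin, both below. Since the shikonin arrays give only a limit, the acetone level was higher by at least 1.19-fold, and the measured log2 fold change was -0.42 (SE 0.12), with a limma adjusted p of 0.203. miR-411 had 444 and 472 against 380 and 436, higher by at least 1.03-fold after acetone, with a log2 fold change of -0.32 (SE 0.11) and a limma adjusted p of 0.277. With each array scaled to its bright microRNAs, which moved the median of all microRNAs by 0.81, the 2 values were 0.41 and 0.50, or -0.39 and -0.31 relative to that median.

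miR-431 and miR-376a were also above background on acetone arrays and on no shikonin array. The values of miR-431 are given above, and miR-376a had 408 and 404 against 352 and 472. Their mean level after acetone did not exceed the mean threshold after shikonin, so no fold is given for either. miR-381, with the third lowest fold change of the members, was undetected, with 360 and 472 against 368 and 440 and a log2 fold change of -0.19 (SE 0.09), or 0.63 with scaling to bright microRNAs. No background was subtracted from these values, which understates the change of dim microRNAs. With a normexp correction the log2 fold changes were 3.01 for miR-667, 1.84 for miR-329, 0.74 for miR-666-5p, -0.70 for miR-379 and -0.57 for miR-411. With the background level subtracted and values under 16 set to 16 they were 3.56, 2.75, 1.40, -1.63 and -2.03, and those of miR-679, miR-381 and miR-666-3p were 1.84, -1.56 and -1.41. None of these passed the adjusted limma test, and the size of a fold change near background therefore depended on the correction.

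**Figure D4:**
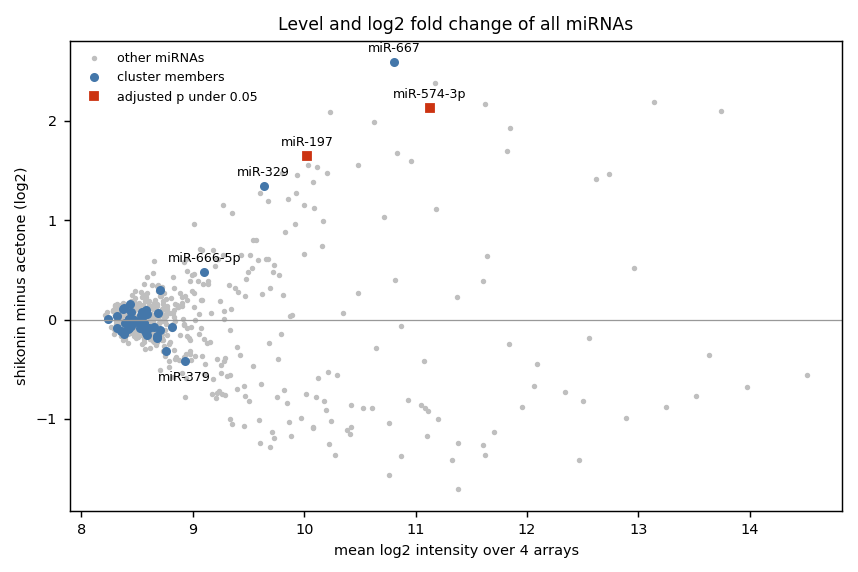
Log2 fold change of shikonin over acetone against mean log2 intensity over the 4 arrays for all 710 microRNAs, with the 48 cluster members in blue and the 2 microRNAs with a limma adjusted p under 0.05 as red squares. Most members lie at the dim end near 0, and miR-667 has the highest fold change on the plot at 2.59.

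The other products of the locus on the chip, 25 entries such as passenger strands that were not among the 48 members, were mostly undetected too. Of these, 24 were above background on no array, their median log2 fold change was 0.021, and 0 passed the adjusted limma test. At an unadjusted p under 0.05 there was 1 higher and 0 lower. The exception was miR-382*, named here after its values had been seen, with raw intensities of 336 and 400 after acetone against 448 and 636 after shikonin. It was above background on both shikonin arrays only, at least 1.15-fold higher there, with a log2 fold change of 0.43 (SE 0.11) and a limma adjusted p of 0.187. The opposite arm, the member miR-382, had a log2 fold change of -0.10 and was undetected.

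miR-667 and miR-329 have different seeds but share a stretch of 8 bases, noticed after their values were known and shown in capitals.
mmu-miR-667: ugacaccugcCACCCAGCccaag
mmu-miR-329: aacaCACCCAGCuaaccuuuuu
The stretch lies at bases 11 to 18 of miR-667 and 5 to 12 of miR-329, and 3 of the 1679 mouse mature sequences in RefSeq hold it (0.179%). Shared stretches of this length are not rare within the cluster, since 14 of 990 pairs of members have one of 8 or more bases. The longest, of 16 bases, is in miR-300 and miR-381, which were both undetected. The first 6 bases of the stretch are in 12 of the 1679 sequences (0.715%), 4 of which could be matched by name to an entry of the chip. The 2 outside the cluster are shown with these bases in capitals.
mmu-miR-574-3p: cacgcucaugcacaCACCCAca
mmu-miR-532-3p: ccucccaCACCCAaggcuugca
miR-574-3p, 1 of the 2 microRNAs that passed the adjusted test on the whole chip, had raw intensities of 908 and 1412 against 4405 and 2777 and a log2 fold change of 2.13 (SE 0.10, limma adjusted p 0.0132). miR-532-3p had 432 and 736 against 1192 and 720 and a log2 fold change of 0.81 (SE 0.44, limma adjusted p 0.475). Its raw values overlapped, whereas the normalized log2 values (8.98 and 9.29 against 10.53 and 9.36) did not. The other, miR-197, had 488 and 680 against 1564 and 1548 and a log2 fold change of 1.64, and its sequence is not shown here. These matches are a description of letters.

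By base composition miR-667 had the highest share of C among the 45 members (47.8%), and miR-329 had 36.4%, at rank 5. The ranks between them were held by miR-668 (45.8%), miR-412 and miR-323-3p (38.1%), in that order. Those members were undetected, with log2 fold changes of 0.08, 0.15 and -0.003. Across the 45 members the share of C and the log2 fold change had a Pearson r of 0.506 and a Spearman rho of 0.299. Without miR-667 and miR-329 these were 0.267 and 0.201. The members share their arrays and most lie at background, so these values describe the letters of the microRNAs beside their readout, and members are not independent replicates.

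Facts of the whole chip bear on these values. The arrays carried 8 spots for each microRNA, with 239 to 398 of 5680 spots empty and median spots of 352 to 488, and their number limits the precision. Over the members the log2 intensities correlated at r = 0.746 within acetone and 0.974 within shikonin, across members that are not independent replicates. Acetone 2 correlated more highly with shikonin 1 (0.888) and shikonin 2 (0.858) than with acetone 1, which gave 0.541 and 0.537 with the shikonin arrays and so stood apart from the rest. Marker microRNAs of the cells of skin had mostly negative fold changes on the same normalized scale, a lean that other detected microRNAs shared in part. Over all 710 microRNAs 367 were negative, and of the 150 above background on all 4 arrays 80 were. With the cluster and the repeat-rich microRNA families left out, 80 of 119 such microRNAs were negative, with a median of -0.45. All 10 keratinocyte markers had negative log2 fold changes, with a summed normalized level of 21296 to 25908 after acetone against 7648.5 to 12833 after shikonin. Of 12 fibroblast and mesenchyme markers 11 were negative (27696 to 33277 against 18011 to 21006), of 8 striated muscle markers 5 (6868 to 11882 against 4833 to 5820), and of 7 leukocyte markers 6 (5311 to 5751 against 4209 to 5768). None of these markers passed the adjusted limma test, and their part in the values of the cluster was not tested.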

How the data were processed

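Total RNA of mouse abdominal skin was hybridized to 4 Geniom biochips whose probes are reverse complements of mature mouse microRNAs. The authors deposited raw spot intensity on a linear scale, without background columns, and a second table of log2 values per microRNA, for which their methods name quantile normalization. The columns of the second table do not share 1 distribution (medians 5.75 to 6.43) and their exact scale is unknown, so it served as an alternative. No scanner software is named in the sources used here.

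The median of up to 8 non-empty spots was taken per microRNA and array, quantile normalized over the 4 arrays, floored at 1 and log2 transformed. The groups were compared in limma 3.58.1 under R 4.3.3 (lmFit and eBayes, two-sided, Benjamini-Hochberg over 710 microRNAs, threshold 0.05). Where no array of a group measured a microRNA above background, a bound was given, from the brighter group's mean and, per array of the dimmer group, the higher of its own value and the threshold. Members were named when they passed the test, departed from the cluster, were above background on all arrays, had the 3 highest or lowest fold changes or the 3 highest levels, or had both arms among the members, and miR-667, miR-329 and miR-379 were known from an earlier analysis. The members and lists were chosen with earlier results of these data known. The tables give 35 members without an arm, and the arm used for their sequence and gene was assigned from current names. Names, gene order and sequences were taken from RefSeq (GRCm38.p6), and no coordinates are given because the tables name no genome build. On simulated data of the 710 microRNAs, the test recovered 65.8% of changes of 1 log2 unit and 92.8% of changes of 2. The simulated noise was normal, with variances that limma had already moderated, so these shares may overstate the power on the real arrays. On the real arrays 33 microRNAs had a log2 fold change above 1 and 30 had one below -1, and 2 of the 710 passed the adjusted test. Other normalizations, background corrections, spot summaries, filters and left-out arrays were tried as alternatives.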

Additional observations from a re-analysis of the deposited data

How the results depend on the processing

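Most members lay near background, where the arrays measure no level, and miR-667 and miR-329 were the members with the highest fold changes under every alternative of the fit that was run. Scaling to bright microRNAs and no normalization moved all microRNAs together, and each used a single pooled variance. Scaling to bright microRNAs gave a members' median of 0.80 (0.81 over all microRNAs), 31 members past the adjusted test (481 of all 710 microRNAs), 41 at an unadjusted p under 0.05 and 48 without overlap (606 of 710 higher and 45 lower), and turned miR-379 (0.41), miR-381 (0.63), miR-411 (0.50) and miR-666-3p (0.69) positive. No normalization gave a median of 0.14, 2 members past the adjusted test (miR-667 and miR-329, of 83 of 710 microRNAs), 2 at an unadjusted p under 0.05, 6 without overlap (107 of 710 higher and 99 lower) and 0.023 for miR-666-3p. The members' median was 0.068 with scaling over all microRNAs, -0.043 with normexp, 0 with the background level subtracted, 0.015 in the deposited value table, 0.48 with the filter on dim microRNAs (5 members tested), -0.010 after the row-order adjustment and -0.0027 without the first 800 rows, and -0.026 to -0.019 with single arrays left out. An intensity trend gave 2 members past the adjusted test, of 38 of 710 microRNAs. At an unadjusted p under 0.05 there were 3 members with the mean of the spots, 2 in the value table and 2 with the filter. The share of all microRNAs at that p is not given for any alternative, including scaling to bright microRNAs and no normalization. These counts of members therefore have no background beside them and are not read as results about the cluster. Departing members numbered 3 with normexp, 10 with subtraction, 3 with the mean of the spots, 1 in the value table, 0 with the filter, 3 without the first 800 rows and 2 to 6 with single arrays left out. The 2 that remained without acetone 2, and also without shikonin 2, were miR-667 and miR-329. The groups did not overlap for 5 members with the filter (70 of 242 microRNAs higher and 108 lower) and for 29 to 41 with single arrays left out (237 to 258 of 710 higher and 251 to 291 lower), where an arm holds 1 array that is assumed to vary like the others. Members above background on all 4 arrays numbered 2 with the mean of the spots, with the row-order adjustment and without the first 800 rows, 3 at 2 MAD, 0 at 5 MAD and 1 to 2 with single arrays left out. The cause of these differences was not tested.

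Same-numbered arrays did not deviate together (correlation -0.276 over all microRNAs), so the numbers were not taken to pair the arrays. With the replicate block 0 members passed the adjusted test, 4 had an unadjusted p under 0.05, 5 departed, 20 did not overlap and the median was -0.021. For the 4, too, no share over all microRNAs is given. A crossed pairing, chosen after seeing the data like the row-order settings, gave 2 members and 35 of 710 microRNAs past the adjusted test.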
